A study of Homo sapiens with 6 samples.

Results

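The genes described here are the D-type cyclins CCND1, CCND2 and CCND3, their kinases CDK4 and CDK6, the CDK inhibitors CDKN1A, CDKN1B, CDKN1C and CDKN2B, and RB1, whose protein the kinases inactivate. They were chosen by gene symbol, and all 10 were found among the 25349 genes of the count table. The counts come from RNA sequencing of SCC-9 cells, an established line from a squamous cell carcinoma of the tongue, grown with hydrocortisone. One group (siE7, 3 libraries) received siRNA directed at exon 7 of MKI67, which encodes the proliferation marker Ki67, and the control group (siNC, 3 libraries) a nonspecific siRNA. Each was given at 10 nM by lipid transfection in 2 rounds, on day 0 and day 2, and the RNA is from day 4. Which of the study's exon 7 siRNAs was used is not given in the sources used here, and nothing says that the 3 libraries of a group came from separate cultures, so the p-values may measure technical spread alone.

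D-type cyclins are the part of the cell cycle engine that answers to growth signals. Bound to CDK4 or CDK6, they start the phosphorylation of the RB protein, which releases the E2F transcription factors and lets a cell pass from G1 into S phase. CDK inhibitors act against this step: the INK4 proteins, of which CDKN2B encodes p15, bind CDK4 and CDK6 alone, while the CIP/KIP proteins p21 (CDKN1A), p27 (CDKN1B) and p57 (CDKN1C) bind cyclin-CDK complexes more broadly. CCND1 is often amplified in squamous carcinomas of the head and neck, and the CDKN2A and CDKN2B locus is often lost in them.

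The libraries held 25608192 to 29550264 counts on genes, and 14661 genes had enough counts to be tested by edgeR's quasi-likelihood test. A gene passed the test if its p-value adjusted by Benjamini-Hochberg over all tested genes was under 0.05. MKI67, the targeted gene, had 1029 to 1077 CPM (counts scaled to a common library size with TMM factors) in the siNC libraries and 108 to 124 CPM in the siE7 libraries, a log2 fold change of -3.21 (standard error, SE, 0.11). siE7 replicate 1 stood apart, with a chi-square per degree of freedom of 61.1 and 72.7 against siE7 replicates 2 and 3, where the other pairs within a group gave 5.54 to 6.22. Values without this library are therefore given beside many of the results. Without it 8765 of 15011 tested genes passed, against 4990 of 14661 with it. All 10 squamous epithelial markers were measured, and their summed level was 23433 to 24946 CPM with siNC and 21448 to 27956 CPM with siE7. The highest siE7 sum was that of siE7 replicate 1, while siE7 replicates 2 and 3 lay below every siNC library. Of these markers 1 passed the test as higher (10.0%, against 18.0% of all tested genes) and 5 as lower (50.0%, against 16.0%). Of the fibroblast markers, 5 of 8 stayed under 1 CPM in every library, and the other 3 averaged 15.3 and 18.3 CPM (COL1A1), 4.59 and 3.08 CPM (FAP) and 2.17 and 1.63 CPM (COL1A2) in siNC and siE7, none passing the test. All 4 endothelial markers stayed under 1 CPM. Of 4 leukocyte markers 1 was listed in the count table, CD14, which averaged 2.95 and 2.05 CPM and did not pass the test. The part of these markers in the results was not tested.

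Promoter sequence was at hand in RefSeq (GRCh38.p14, 300 bases around each start site) for 7 of the 10 genes, with no entry for CCND1, CCND2 and CDKN1C. For RB1 the single entry lies at a start 172699 bases inside the gene. Shown are the promoters of CDK4, CDKN1A and CCND3, whose transcripts fell with siE7, least in siE7 replicate 1, and of CDKN1B, which did not pass the test. Capitals mark the E-box CACGTG, which MYC and MAX are known to bind, the GC box GGGCGG of SP1 and the EGR1 motif GCGNGGGCG, searched on both strands.
CDK4, chr12:57752261-57752560, minus strand: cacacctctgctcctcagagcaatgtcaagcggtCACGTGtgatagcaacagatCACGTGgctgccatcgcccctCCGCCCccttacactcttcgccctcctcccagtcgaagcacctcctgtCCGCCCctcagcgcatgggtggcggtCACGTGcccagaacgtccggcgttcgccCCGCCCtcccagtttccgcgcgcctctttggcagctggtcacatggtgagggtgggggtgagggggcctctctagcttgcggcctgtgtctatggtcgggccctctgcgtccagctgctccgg
CDKN1A, chr6:36678464-36678763, plus strand: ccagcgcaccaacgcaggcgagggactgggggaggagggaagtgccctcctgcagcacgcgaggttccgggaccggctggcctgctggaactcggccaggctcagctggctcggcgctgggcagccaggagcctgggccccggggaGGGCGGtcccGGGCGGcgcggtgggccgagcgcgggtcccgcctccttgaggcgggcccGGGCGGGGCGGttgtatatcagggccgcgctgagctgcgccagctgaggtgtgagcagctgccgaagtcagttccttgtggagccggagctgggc
CCND3, chr6:41941759-41942058, minus strand: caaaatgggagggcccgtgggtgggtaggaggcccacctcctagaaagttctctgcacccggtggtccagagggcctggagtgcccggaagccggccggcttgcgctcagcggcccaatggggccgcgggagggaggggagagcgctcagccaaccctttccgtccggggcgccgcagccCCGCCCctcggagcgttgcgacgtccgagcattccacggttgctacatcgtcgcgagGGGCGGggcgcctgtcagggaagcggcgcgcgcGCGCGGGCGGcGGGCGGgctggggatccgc
CDKN1B, chr12:12717118-12717417, plus strand: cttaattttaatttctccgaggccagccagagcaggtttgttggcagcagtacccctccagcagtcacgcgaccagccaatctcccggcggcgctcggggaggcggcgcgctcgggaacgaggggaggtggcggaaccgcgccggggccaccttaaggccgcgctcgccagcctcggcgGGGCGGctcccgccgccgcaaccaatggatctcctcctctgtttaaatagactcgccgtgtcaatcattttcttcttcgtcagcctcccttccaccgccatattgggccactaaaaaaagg
The CDK4 promoter held 3 E-boxes, at -216, -196 and -101 from the start site, and 3 GC boxes. CDK6 held 1 E-box, and an E-box was found in 7.2% of all 34796 promoters of this length. CDKN1A held 4 GC boxes and CDKN1B 1, and GC boxes were found in 44.9% of all promoters. The CCND3 promoter held 4 GC boxes and 1 EGR1 motif that overlaps one of them, a motif found in 9.43% of promoters. The same motif was found in CDK6, beside 3 GC boxes, and at another CCND3 start, beside 5 GC boxes. Neither the AP-1 motif TGACTCA (4.96% of promoters) nor the E2F motifs TTTCGCGC (0.506%) and TTTGGCGC (0.652%) were found in any entry of these 7 genes. Such matches describe the letters only.

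With siE7, all 3 D-type cyclins fell, CCND2 at low counts, and CDKN1C rose. CDK4 and CDKN1A fell slightly, and their calls were lost in 9 and 7 of 14 alternative settings. CDK6, CDKN1B and RB1 did not pass the test, and CDKN2B had too few counts to be tested. Of the 9 tested genes, 6 passed (66.7%), against 34.0% of all tested genes, 5 as lower (background 16.0%) and 1 as higher (background 18.0%). CCND2 and CDKN1C passed the filter on low counts only through the group in which they are high. Of the genes that passed, CCND1, CCND2 and CDKN1C (3 of 9 tested) also moved by more than 1 on the log2 scale (background 12.2%). For 6 of the 9 genes the ranges of the groups were separate, against 47.6% of all tested genes. Without CCND2 and CDKN1C, 4 of 7 genes passed (57.1%), 1 of 7 also moved by more than 1 (14.3%, near the background) and 4 of 7 had separate ranges (57.1%). In a fit limited to genes with at least 10 counts in every library, 3 of these 7 passed. CDK4 lost its call there (edgeR adjusted p = 0.053). Of all genes in that fit, 4645 of 13233 passed and 1365 also moved by more than 1. The median log2 fold change was -0.38 over the 9 genes and 0.08 over all tested genes. These are levels in bulk RNA, in which fewer cells with a transcript and less transcript per cell cannot be told apart.

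**Figure D1:**
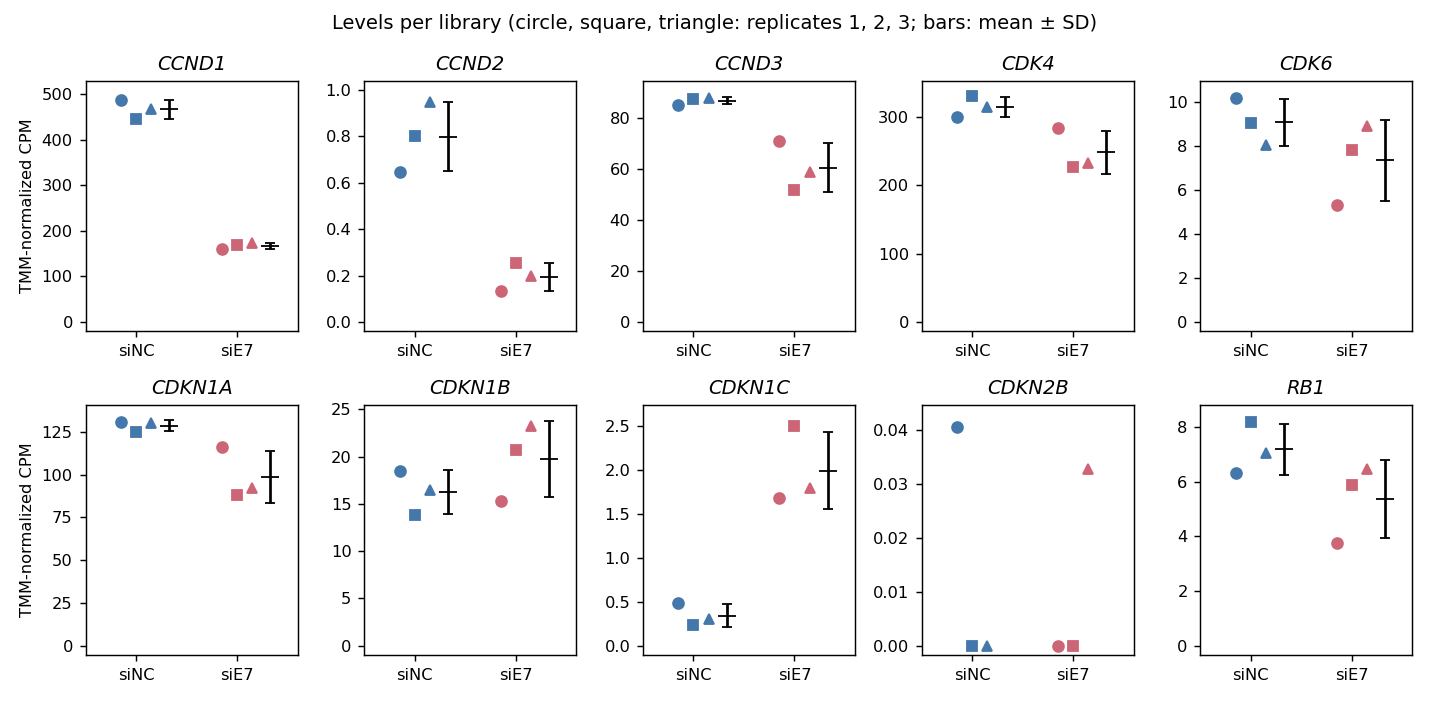
TMM-normalized level (CPM, y axis from 0, own scale per gene) of the 10 genes in the 3 siNC and the 3 siE7 libraries; each point is 1 library (circle, square and triangle for replicates 1, 2 and 3) and the bars give the mean ± SD, which is not drawn for CDKN2B. CCND1 lies at 446 to 487 CPM with siNC and 161 to 174 CPM with siE7, and the groups overlap for CDK6, CDKN1B, RB1 and CDKN2B.

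CCND1 (ENSG00000110092.4) encodes cyclin D1 and is located on chromosome 11 (GRCh38) at 69641156 to 69654474, plus strand, with 5 exons in its canonical transcript. Its level was 487, 446 and 468 CPM in siNC replicates 1 to 3 and 161, 169 and 174 CPM in siE7 replicates 1 to 3. The groups lay far apart, and the siE7 libraries differed little from each other. The mean fell from 467 ± 20.4 CPM (SD, n = 3) to 168 ± 6.55 CPM (SD, n = 3), which is 2.78-fold lower (log2 fold change -1.48, SE 0.10, edgeR adjusted p = 3.8e-06). CCND1 passed in each of 14 alternative settings, with estimates from -1.54 to -1.31. Without siE7 replicate 1 its log2 fold change was -1.51. Its 3′ end shares exon bases with LTO1 on the minus strand (69653076 to 69675416), and whether strand was used in counting is not given in the sources used here. LTO1 had 1359 to 1643 counts with siNC and 1869 to 2325 with siE7, against 11138 to 12370 and 4653 to 5314 for CCND1.

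Of the 3 genes with the pattern most like that of CCND1, by the root mean square distance of their log2 levels relative to the siNC mean over the 6 libraries, 2 are reported here, MYOF (distance 0.06) and VDR (0.06). MYOF had 373 to 393 CPM with siNC and 138 to 151 CPM with siE7. VDR, the vitamin D receptor, had 40.0 to 43.1 CPM with siNC and 14.6 to 15.6 CPM with siE7. This is a description of 6 libraries in 2 groups.

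CCND3 (ENSG00000112576.13), for cyclin D3, lies on chromosome 6 from 41934934 to 42050357 on the minus strand. It had 85.4, 87.5 and 87.9 CPM in the siNC replicates and 71.1, 51.8 and 58.9 CPM in the siE7 replicates. No siE7 library reached the siNC range, and siE7 replicate 1 was the nearest to it. The mean fell from 86.9 ± 1.34 to 60.6 ± 9.75 CPM (SD, n = 3 each), 1.43-fold lower (log2 fold change -0.52, SE 0.13, edgeR adjusted p = 0.0098). CCND3 kept its call in all 14 alternative settings, with adjusted p between 1.1e-11 and 0.049. Its log2 fold change was -0.71 without siE7 replicate 1.

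CCND2 (ENSG00000118971.9), for cyclin D2, lies on chromosome 12 from 4269771 to 4305353 on the plus strand and was close to the limit of detection. It had 16, 20 and 25 counts in the siNC libraries and 4, 7 and 6 counts in the siE7 libraries. At these depths 3 counts correspond to 0.0981 to 0.122 CPM. The mean fell from 0.798 ± 0.149 to 0.195 ± 0.0593 CPM (SD, n = 3 each), with a log2 fold change of -2.02 (SE 0.46, edgeR adjusted p = 0.0057). A protein-coding model on the same strand (ENSG00000285901, 4273762 to 4405490) shares exon bases with CCND2 and had 159 to 212 counts with siNC and 196 to 311 with siE7, so the split of reads between them is uncertain.

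CDK4 (ENSG00000135446.17), the catalytic partner of the D-type cyclins, lies on chromosome 12 from 57747727 to 57756013 on the minus strand. It had 299, 329 and 313 CPM in the siNC replicates and 283, 227 and 233 CPM in the siE7 replicates. siE7 replicate 1 lay just under the lowest siNC library, and the other siE7 libraries lay lower still. The mean fell from 314 ± 15.1 to 248 ± 31.1 CPM (SD, n = 3 each), 1.27-fold lower (log2 fold change -0.34, SE 0.12, edgeR adjusted p = 0.042). The call was lost in 9 of 14 alternative settings, among them library totals in place of TMM factors (-0.18, edgeR adjusted p = 0.14), the replicate block (-0.35, edgeR adjusted p = 0.055) and the loss of any single library other than siE7 replicate 1 (edgeR adjusted p = 0.093 to 0.16). Without siE7 replicate 1 the log2 fold change was -0.51 (SE 0.06, edgeR adjusted p = 7.0e-10), in a fit in which 8765 of 15011 tested genes passed. CDK4 shares exon bases with TSPAN31 on the plus strand, which had 194 to 253 counts per library against 6258 to 8396 for CDK4.

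CDK6 (ENSG00000105810.10), the other kinase of the D-type cyclins, lies on chromosome 7 from 92604921 to 92836573 on the minus strand. It had 10.2, 9.01 and 8.03 CPM in the siNC replicates and 5.30, 7.79 and 8.90 CPM in the siE7 replicates. The groups overlapped, and siE7 replicate 1 was the lowest of the 6 libraries. The log2 fold change was -0.31 with a 95% interval of -0.77 to 0.15 (edgeR adjusted p = 0.28), and -0.18 without siE7 replicate 1. CDK6 passed in none of the 14 alternative settings, in which the adjusted p lay between 0.15 and 0.68.

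CDKN1A (ENSG00000124762.14), for p21, lies on chromosome 6 from 36676460 to 36687337 on the plus strand and was the most abundant CDK inhibitor. It had 130, 125 and 130 CPM in the siNC replicates and 116, 88.2 and 91.9 CPM in the siE7 replicates. As for CCND3 and CDK4, the groups did not overlap and siE7 replicate 1 lay nearest to siNC. The mean fell from 128 ± 3.25 to 98.8 ± 15.1 CPM (SD, n = 3 each), 1.30-fold lower (log2 fold change -0.38, SE 0.13, edgeR adjusted p = 0.037). The call was lost in 7 of 14 alternative settings, with upper-quartile scaling (edgeR adjusted p = 0.052), with library totals (-0.22, edgeR adjusted p = 0.11) and without any single library other than siE7 replicate 1 (edgeR adjusted p = 0.095 to 0.14). Without siE7 replicate 1 the log2 fold change was -0.57 (SE 0.06).

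CDKN1B (ENSG00000111276.12), for p27, lies on chromosome 12 from 12685498 to 12722369 on the plus strand. It had 18.5, 13.9 and 16.5 CPM in the siNC replicates and 15.3, 20.7 and 23.2 CPM in the siE7 replicates. siE7 replicates 2 and 3 lay above all siNC libraries and siE7 replicate 1 lay within them. The log2 fold change was 0.28 with a 95% interval of -0.12 to 0.67 (edgeR adjusted p = 0.26). Without siE7 replicate 1 CDKN1B passed the test, with a log2 fold change of 0.37 (SE 0.11, edgeR adjusted p = 0.0037), and this was the single setting of 14 in which it did. In that fit most tested genes passed, 8765 of 15011.

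CDKN1C (ENSG00000129757.15), for p57, is an imprinted gene on chromosome 11, from 2883213 to 2885775 on the minus strand. It rose from 12, 6 and 8 counts in the siNC libraries to 50, 69 and 55 counts in the siE7 libraries. Every siE7 library held far more counts than any siNC library, though CDKN1C stayed a low-abundance transcript. The level rose from 0.343 ± 0.128 to 2.00 ± 0.441 CPM (SD, n = 3 each), 5.76-fold higher (log2 fold change 2.53, SE 0.38, edgeR adjusted p = 5.1e-04). It passed in all 13 alternative settings in which it was tested, with log2 fold changes between 2.32 and 2.85. The filter of at least 10 counts in every library left it out.

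CDKN2B (ENSG00000147883.12), for the INK4 protein p15, had 1, 0 and 0 counts in the siNC libraries and 0, 0 and 1 counts in the siE7 libraries. It lies on chromosome 9 from 22002903 to 22009305 on the minus strand. Both groups were under 3 counts in every library, so no fold change is given. The neighboring INK4 gene CDKN2A, for p16, had 0, 4 and 1 counts with siNC and 0 counts in each siE7 library, and was not tested either. Transcripts of both INK4 genes of this locus were thus at or near 0 in both groups. INK4 genes elsewhere were measured at higher levels. CDKN2C, for p18, had 23.6 ± 1.87 CPM with siNC and 30.7 ± 4.23 CPM with siE7 (SD, n = 3 each), with a log2 fold change of 0.38 (95% interval 0.07 to 0.69, edgeR adjusted p = 0.057), and it passed in 3 of 14 alternative settings. CDKN2D, for p19, had 22.6 and 28.5 CPM (log2 fold change 0.33, edgeR adjusted p = 0.11), and it passed with library totals.

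RB1 (ENSG00000139687.16), the target of the cyclin D kinases, lies on chromosome 13 from 48303744 to 48599436 on the plus strand, with 27 exons in its canonical transcript. It had 6.32, 8.17 and 7.04 CPM in the siNC replicates and 3.74, 5.87 and 6.48 CPM in the siE7 replicates. The groups overlapped, and siE7 replicate 1 was again the lowest. The log2 fold change was -0.42 with a 95% interval of -0.91 to 0.07 (edgeR adjusted p = 0.17), and -0.28 without siE7 replicate 1. RB1 passed in none of the alternative settings. Its relative RBL2, for p130, rose from 16.6 ± 0.765 to 26.5 ± 4.39 CPM (SD, n = 3 each), with a log2 fold change of 0.68 (SE 0.15, edgeR adjusted p = 0.0059), and it passed in all alternative settings. The other relative, RBL1 for p107, had 14.2 and 10.1 CPM (log2 fold change -0.48, edgeR adjusted p = 0.081, 0.012 to 0.29 over its alternatives). It passed without siE7 replicate 1 or 2 and in 4 other settings.

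In each of the 9 tested genes, siE7 replicate 1 lay outside the range of siE7 replicates 2 and 3. It was the siE7 library nearest to siNC for 5 genes (CCND3, CDK4, CDKN1A, CDKN1B and CDKN1C) and not for CCND1, CCND2, CDK6 and RB1. The shares of all tested genes for which this holds were not computed. Because the library stood apart over all tested genes, these counts show nothing particular to the genes described here. On the log2(CPM + 0.5) scale, relative to the siNC mean, the CDKN1A level was -0.14 in siE7 replicate 1 and averaged -0.51 in the others, and that of CDK4 was -0.15 against -0.45. The opposite held for CDK6, at -0.72 against -0.11, and for RB1, at -0.85 against -0.20. CCND1 hardly differed, at -1.53 against -1.44. Scaling to plain library totals shifted the median log2 fold change of all tested genes upward by 0.17, and that of each tested member by a similar amount. No member changed its direction in any alternative setting.

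**Figure D2:**
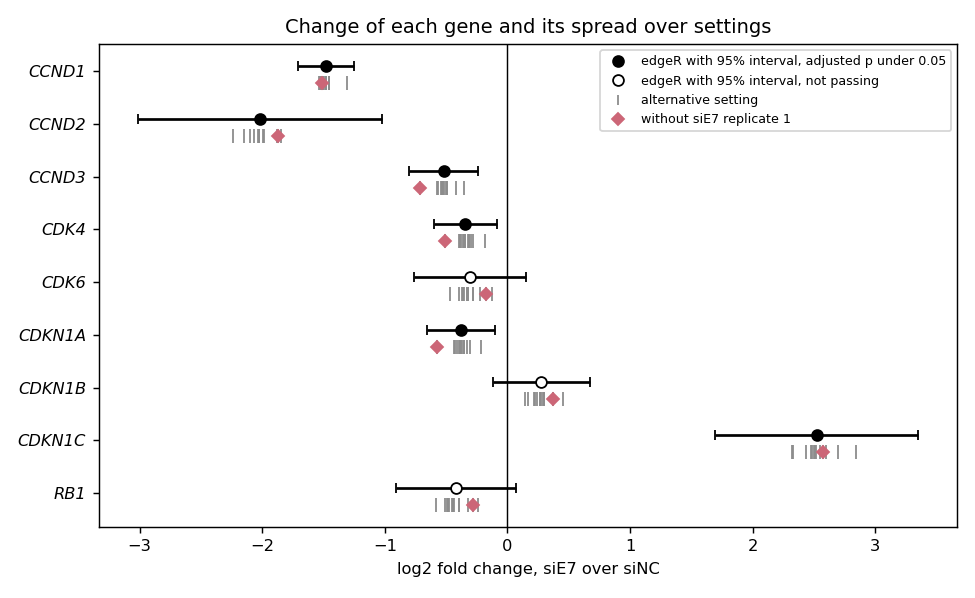
Log2 fold change of siE7 over siNC (x axis) for the 9 tested genes; circles give the edgeR estimate with its 95% interval (filled, adjusted p under 0.05; open, not passing), gray ticks the alternative settings and red diamonds the fit without siE7 replicate 1. CCND1, CCND2 and CDKN1C lie beyond 1 in every setting that tested them, while CDK4, CDKN1A and CCND3 lie further from 0 without siE7 replicate 1 than in any other setting.

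To compare levels between genes, the TMM-normalized level was divided by the length of the union of exons in GENCODE (CPM per kilobase). In the siNC libraries CDK4 averaged 101 CPM per kilobase and CCND1 98.1, and these neighbors overlapped between libraries. Next came CDKN1A at 42.9, CCND3 at 15.1, CDKN1B at 1.76, RB1 at 1.12 and CDK6 at 0.741 CPM per kilobase, each without overlap with its neighbors. CDKN1C (0.138) and CCND2 (0.10) overlapped with each other. Among all tested genes, CDK4 stood at the percentile 96.5 of the mean per-kilobase level, CCND1 at 95.4 and CDKN1A at 92.1, while CDK6 stood at 25.2. The order was unchanged with the length of the longest transcript, with which CDK4 (168) and CCND1 (110 CPM per kilobase) no longer overlapped. CCND1, CDK4 and CDKN1A were the most abundant transcripts of their families. In the siE7 libraries CCND1 averaged 35.2 and CDK4 80.0 CPM per kilobase.

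Summed over the D-type cyclins, the level was 117, 109 and 114 CPM per kilobase in the siNC libraries and 46.1, 44.4 and 46.8 in the siE7 libraries, 2.47-fold lower (p = 0.10 by a two-sided exact permutation test, which is as low as 3 libraries against 3 can go). CCND1 made up 87.3%, 86.0% and 86.5% of this sum in the siNC libraries and 73.2%, 79.7% and 78.1% in the siE7 libraries, the rest being nearly all CCND3. The mean share of CCND1 was 86.6% ± 0.656 with siNC and 77.0% ± 3.37 with siE7 (SD, n = 3 each; exact permutation test, p = 0.10). With the longest transcript as the length the shares were 75.1% and 61.1%. The sum over the CIP/KIP inhibitors was 45.7, 43.2 and 45.3 CPM per kilobase with siNC and 41.1, 32.7 and 33.9 with siE7, 1.25-fold lower (exact permutation test, p = 0.10), and CDKN1A made up 95.8% and 91.6% of it. With library totals the log2 difference of the inhibitor sum was -0.16 in place of -0.33 (exact permutation test, p = 0.20). CDKN1C made up 0.307% of this sum with siNC and 2.29% with siE7. The ratio of the cyclin sum to the inhibitor sum, which no scaling of libraries can move, was 2.56, 2.52 and 2.51 with siNC and 1.12, 1.36 and 1.38 with siE7, 1.97-fold lower (exact permutation test, p = 0.10). Without siE7 replicate 1 the difference of the log2 ratio was -0.89 in place of -0.98. That of the CCND1 share was then -7.70 in place of -9.59 percentage points. The ratio of CDK4 to CDK6 was 116 to 154 with siNC and 103 to 212 with siE7, and the groups overlapped (exact permutation test, p = 0.90).

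Of 22 further genes of this pathway (INK4 inhibitors, RB relatives, E2F and DP factors, cyclin E, CDK2, CDC25A and the CDK-activating kinase), 21 were tested, of which 4 passed as higher (19.0%) and 3 as lower (14.3%), near the 18.0% and 16.0% of all tested genes. Their median log2 fold change was 0.32. CCNE1, for cyclin E1, which acts with CDK2 after the D-type cyclins, fell from 44.2 ± 1.19 to 23.9 ± 1.93 CPM (SD, n = 3 each; log2 fold change -0.89, SE 0.12, edgeR adjusted p = 2.7e-04), and CDK2 had a log2 fold change of -0.64 (edgeR adjusted p = 0.0032). E2F7, a repressor of the E2F family, also fell (-0.88), while the activators E2F2 (0.90) and E2F1 (0.52, edgeR adjusted p = 0.019) rose. E2F1 did not pass without siNC replicate 1 or 2 (edgeR adjusted p up to 0.10). E2F6 (0.45) passed narrowly (edgeR adjusted p = 0.0496) and lost its call in 10 of 14 settings. CCNE2 had a log2 fold change of 0.57 (edgeR adjusted p = 0.15), with 7.66 CPM in siE7 replicate 1 and 19.3 and 18.9 CPM in replicates 2 and 3, and passed without siE7 replicate 1 and without a filter on low counts. The count of higher genes was 9 with library totals, 10 without siE7 replicate 1 and 2 without siNC replicate 1 or 2, and that of lower genes 5 without siE7 replicate 1. The counts over all tested genes moved as well. As higher passed 4030 of 14661 with library totals, and 4343 of 15011 without siE7 replicate 1, where 4422 passed as lower. Without siNC replicate 1 or 2 the higher genes were 1640 of 15138 and 1598 of 15134.

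Of 36 genes that E2F factors are known to drive at the G1/S transition, 18 passed as lower (50.0%, against 16.0% of all tested genes) and 1 as higher (2.78%, against 18.0%), with a median log2 fold change of -0.33. GINS1, a subunit of the replicative helicase, fell from 79.5 ± 3.41 to 41.6 ± 3.90 CPM (log2 fold change -0.94), TYMS, for thymidylate synthase, from 146 ± 3.18 to 81.9 ± 6.38 CPM (-0.83), and MYBL2, a transcription factor of the late cell cycle, from 945 ± 96.6 to 542 ± 61.1 CPM (-0.80; SD, n = 3 each). These passed in all alternative settings. The single gene that rose was PCNA, the sliding clamp of DNA polymerase, with a log2 fold change of 0.43 (edgeR adjusted p = 0.014), and it lost its call without siE7 replicate 2 or any single siNC library (edgeR adjusted p up to 0.084). The count of lower genes was 10 or 11 without siE7 replicate 2 or any single siNC library, 11 with library totals and 25 without siE7 replicate 1. That of higher genes was 5 without siE7 replicate 1 and 0 without siE7 replicate 2 or any single siNC library. Over all tested genes, 4422 of 15011 passed as lower and 4343 as higher without siE7 replicate 1. Without siE7 replicate 2 or any single siNC library, 1552 to 1838 passed as lower and 1598 to 1942 as higher. With library totals 1632 of 14661 passed as lower.

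Among 15 genes for the ubiquitin-dependent turnover of these proteins, 2 passed as lower and 0 as higher by edgeR, with 1 gene higher at an unadjusted p under 0.05 and 0 higher by DESeq2 and by limma-voom. The 2 lower genes are 13.3% of the list, near the 16.0% of all tested genes, and the 0 higher genes stand against 18.0%. The share of all tested genes at an unadjusted p under 0.05 was not computed. FBXO4, an F-box protein, fell from 10.0 ± 1.09 to 4.93 ± 1.43 CPM (SD, n = 3 each; log2 fold change -1.02, edgeR adjusted p = 0.0041). CKS1B, which helps SKP2 recognize p27, had a log2 fold change of -0.37 (edgeR adjusted p = 0.037) and lost its call in 8 of 14 settings, including those without siE7 replicate 2 or any single siNC library. In these the count of lower genes was 1, and without siE7 replicate 1 it was 4, with 2 higher. Over all tested genes, 4422 of 15011 passed as lower and 4343 as higher without siE7 replicate 1.

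Of 22 transcription regulators known to act on the genes described here, 4 passed as higher (18.2%, near the 18.0% of all tested genes) and 7 as lower (31.8%, against 16.0%), with a median log2 fold change of 0.00. FOXO4, a forkhead factor, rose from 6.89 ± 0.941 to 31.1 ± 4.26 CPM (SD, n = 3 each; log2 fold change 2.17, edgeR adjusted p = 6.8e-06). FOSL1, a subunit of AP-1, fell from 416 ± 40.5 to 174 ± 49.3 CPM (-1.26), and EGR1, a growth factor response gene, from 59.2 ± 2.11 to 25.6 ± 6.15 CPM (-1.21). JUN, another subunit of AP-1, rose from 321 ± 13.6 to 447 ± 54.3 CPM (log2 fold change 0.48, edgeR adjusted p = 0.0084). MYC, which is known to repress CDKN1A and CDKN2B, had 118 ± 2.96 CPM with siNC and 93.6 ± 4.96 CPM with siE7 (log2 fold change -0.33, edgeR adjusted p = 0.030). Its call was lost in 7 of 14 settings, including library totals and the loss of any single library other than siE7 replicate 1 (edgeR adjusted p up to 0.13). The count of higher genes was 7 without siE7 replicate 1 and 2 without siNC replicate 2 or 3, and that of lower genes 4 without siNC replicate 1 or 3 and with library totals. Over all tested genes, 4343 of 15011 passed as higher without siE7 replicate 1, and 1598 and 1601 without siNC replicate 2 or 3. As lower passed 1596 and 1552 without siNC replicate 1 or 3, and 1632 of 14661 with library totals.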

How the data were processed

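The authors deposited whole-number read counts per gene for 6 libraries, without normalization. Per the labels and the methods, these are stranded poly(A) libraries read as 150-bp pairs on a NovaSeq, processed with HISAT2 and DESeq2 on GRCh38. The counting tool, the annotation release and the use of strand are not given in the sources used here. Samples were grouped by title.

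Genes were filtered by filterByExpr of edgeR 4.0.16 (R 4.3.3), scaled by TMM, and compared by the robust quasi-likelihood test with Benjamini-Hochberg adjustment. CPM use TMM-scaled library sizes. Where log2 levels per library were compared, 0.5 CPM was added. Sums and ratios were compared by the exact permutation test of scipy 1.17.1. Positions, overlaps and exon lengths come from GENCODE release 44 on GRCh38, which matched 25283 of 25349 gene identifiers without version. In simulated data with 200 genes changed by 1 on the log2 scale, 165 were recovered by edgeR, with 11 false calls over 14648 genes. The simulation gave every gene the same dispersion, held fewer changed genes than passed here and had no library that stood apart. Its rates therefore do not carry over to these data. The alternatives were DESeq2 1.42.0, limma-voom (limma 3.58.1), RLE, upper-quartile and library-total scaling, 2 other filters, a replicate block, other lengths, and each library left out. At the depth of 25608192 to 29550264 counts, CCND2, CDKN1C and CDKN2B had few counts in at least 1 group, which limits what their values can show.

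The members and lists were chosen with earlier results of these data known. Named genes are the members, MKI67, the 3 genes with the smallest p-values past the test in each list, further cell cycle genes chosen by name, genes overlapping a member and the 3 genes most like the member with the smallest p-value. E2F6, PCNA, JUN and the fibroblast and leukocyte markers were named after their values were seen. Some named genes and 1 gene list are not reported here.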

Additional observations from a re-analysis of the deposited data

How the results depend on the processing

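CCND1, CCND2, CCND3 and CDKN1C kept their direction and their side of the threshold in all settings that tested them, MKI67 too (log2 fold change -3.27 to -3.04). The filter of at least 10 counts in every library left out CCND2 and CDKN1C. These genes passed the main filter only through the group in which they are high. The cyclin sum (log2 difference -1.33 to -1.28 with 1 library left out), the CCND1 share, the inhibitor sum (-0.43 to -0.16 over all its alternatives) and their ratio kept their direction. Without 1 library, the difference of the log2 CDK4 to CDK6 ratio lay between -0.33 and 0.18, so its sign turned.

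The number of genes passing lay between 3153 and 8765 with 1 library left out, the highest without siE7 replicate 1. Members passing as lower were 3 with upper-quartile scaling, library totals, or at least 10 counts in every library, and 3 to 5 with 1 library left out. Members passing as higher were 0 with at least 10 counts in every library, which leaves out CDKN1C, and 1 to 2 with 1 library left out. With library totals, 9 other pathway genes passed as higher, 4 E2F-regulated genes as higher and 11 as lower, 1 turnover gene as higher and 1 as lower, and 4 regulators as lower. Over all 14661 tested genes, 4030 then passed as higher and 1632 as lower. With upper-quartile scaling and with no filter 1 turnover gene passed as lower, and with no filter 2 E2F-regulated genes as higher. All tested genes gave 2839 higher and 2195 lower with upper-quartile scaling, and 2944 and 2539 of 25349 with no filter. With 1 library left out, other pathway genes gave 2 to 10 higher and 3 to 5 lower, E2F-regulated genes 0 to 5 and 10 to 25, turnover genes 0 to 2 and 1 to 4, and regulators 2 to 7 and 4 to 8. All tested genes gave 1598 to 4343 higher and 1552 to 4422 lower in these fits. The cause was not tested.

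Pairing by replicate number was not used: the deviations of same-numbered libraries correlated at -0.06, -0.02 and -0.08 over genes, and 0 of 6 libraries correlated best with their own number. With the replicate block, 4947 genes passed, CDK4 lost its call, 2 E2F-regulated genes passed as higher and 1 turnover gene as lower.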
